A study of Mus musculus with 4 samples.

Results

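The cholesterol and fatty acid synthesis genes described here are 37 genes out of the 52636 in the deposited table, chosen by name as the genes of 2 linked biosynthetic routes with their regulators and efflux genes. A sterol branch of 19 genes runs from the cytosolic thiolase gene Acat2 through the mevalonate pathway to cholesterol. A fatty acid branch of 10 genes makes, desaturates and elongates fatty acids. The remaining genes are 5 regulators and 3 efflux or LXR target genes. Every name matched 1 row of the table, and 35 of the 37 reached the mean of 1 FPKM required for testing (fragments scaled to gene length and library size). Of these, 18 lay in the sterol branch, 10 in the fatty acid branch, 5 among the regulators and 2 among the efflux genes.

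In these pathways, acetyl-CoA from citrate feeds both sterol and fatty acid synthesis. Transcription of both branches is driven by the SREBP factors, which the escort protein SCAP carries from the endoplasmic reticulum to the Golgi for cleavage when sterols are scarce, while INSIG proteins hold the complex back when sterols are plentiful. Activated T cells raise both routes to build membranes.

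RNA was sequenced from Th17 cells, helper T cells that make interleukin 17, on the C57BL/6 background, in 2 PP2A WT and 2 PP2A cKO libraries. PP2A removes phosphate from serine and threonine residues. For the cKO, neither the deleted subunit nor the Cre driver is named in the sources used here. Naive cells of both genotypes had been polarized for 2 days with 20 ng/ml of IL-6, 2 ng/ml of TGFβ1, soluble antibodies to CD3 and CD28 (2 µg/ml each) and antibodies against IL4 and IFNγ (10 µg/ml each), in culture with irradiated autologous antigen presenting cells. All cultures were then restimulated with PMA (50 ng/ml) and ionomycin (500 ng/ml) for 4 h, so every level below is that of restimulated cells. The labels number the libraries of a genotype without saying whether they came from different mice or cultures, and p-values therefore measure only the spread between these libraries, which may be technical.

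The libraries held 18517487 to 20387948 gene-assigned reads. Of the PP2A catalytic genes, Ppp2ca had 42.2 and 50.1 FPKM in WT and 41.8 and 34.5 in cKO (limma, adjusted p = 0.36). Ppp2cb had 95.4 and 89.6 FPKM in WT and 91.3 and 103 in cKO (limma, adjusted p = 0.754). The further PP2A genes Ppp2r1a and Ppp2r1b were not called either (limma, adjusted p = 0.91 and 0.684). The directions below therefore rest on the library labels. The Th17 markers Il17a, Il17f, Il23r, Rora and Ccr6 were present in every library, with Il17f between 2380 and 3318 FPKM. Markers of cells that the antigen presenting population could hold were near 0. The 5 B cell markers summed to 0.374 to 0.633 FPKM in WT and 0.547 to 0.755 in cKO, the 5 dendritic cell markers to 0.445 to 0.562 and 0.641 to 0.654, and the 5 macrophage and monocyte markers to 1.87 to 2.22 and 1.23 to 1.59, of which Cd68 gave 1.11 to 1.42. The dendritic cell marker Clec9a was listed at 0 in every library, and the macrophage gene Lyz2 did not exceed 0.0398. The CD8 T and NK cell markers summed to 7.61 to 8.24 FPKM in WT and 9.28 to 10.2 in cKO, nearly all from Cd8b1, with Ncr1 and Klrb1c at 0.

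**Figure D1:**
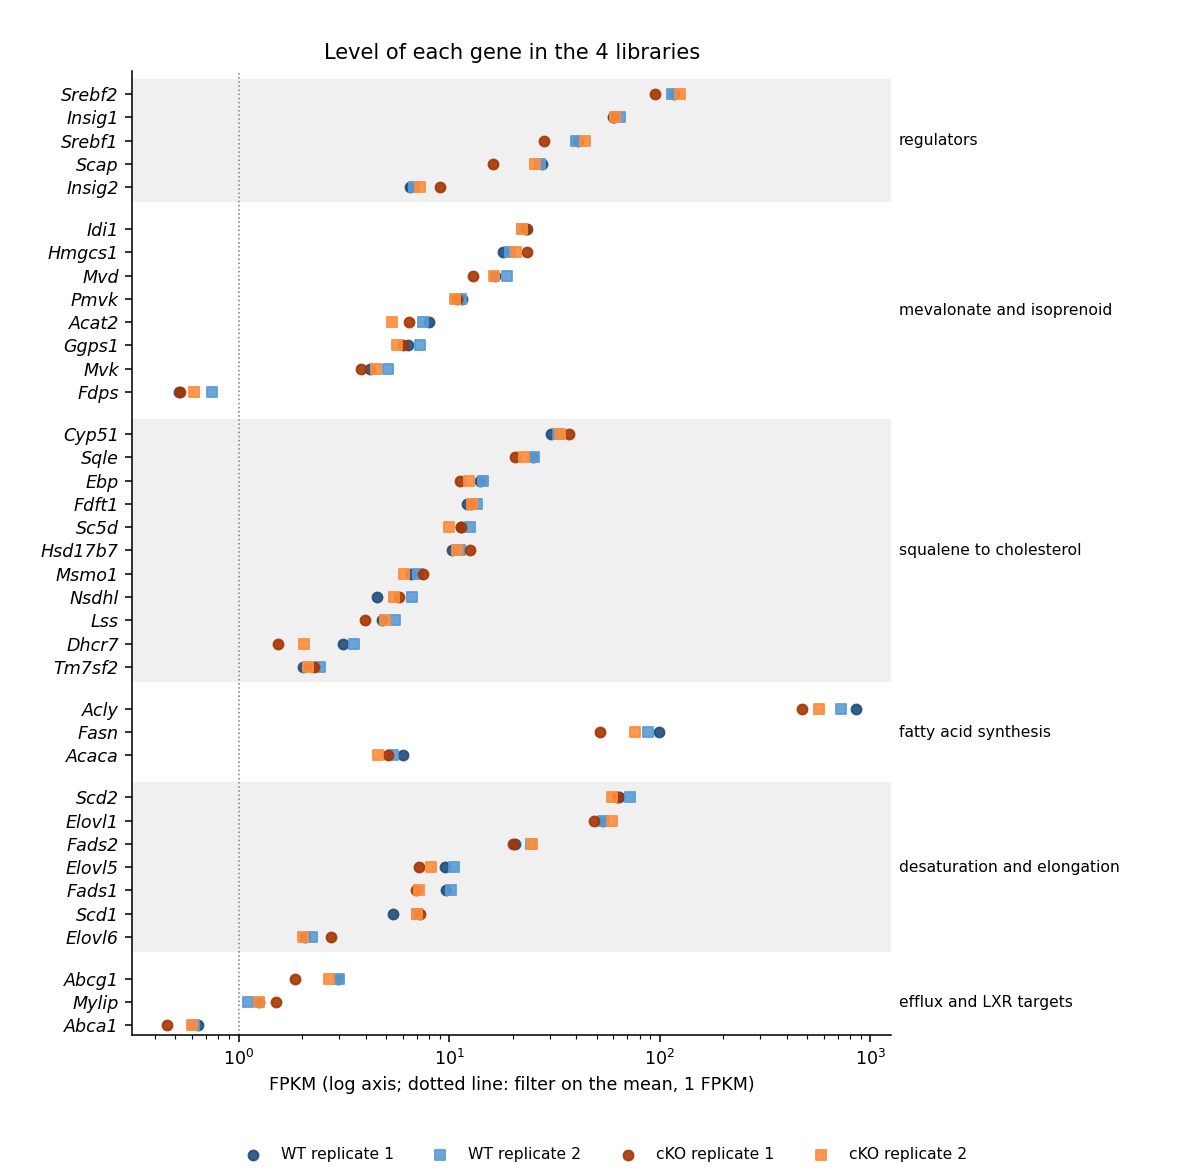
FPKM of the 37 genes (x axis, log scale) in the 4 libraries, by role (y axis), with WT in blue, cKO in orange, replicate 1 as circles and replicate 2 as squares. Acly stands far to the right at 472 to 858 FPKM, and Fdps and Abca1 lie left of the dotted line at 1 FPKM in every library.

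None of the 35 tested genes differed between the genotypes past the threshold, and Acly, Fasn, Fads1 and Dhcr7 had the lowest cKO values relative to WT (mean cKO levels at 0.66, 0.691, 0.71 and 0.539 of the WT mean). The test was limma on log2(FPKM + 1) over 10562 genes, with p-values adjusted over all of them and called under 0.05. Across all tested genes 0.814% were called higher and 0.256% lower. At an unadjusted p under 0.05, 0 of the 35 were higher, against 9.56% of all tested genes, and 7 were lower (20.0%), against 10.3%. Those 7 were Acly, Fasn, Fads1, Elovl5, Acat2, Ebp and Dhcr7. In bulk RNA, fewer cells of a type and less RNA per cell cannot be told apart.

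For 15 of the 35 genes (42.9%) the higher cKO value was below the lower WT value, against 28.7% of all tested genes. The reverse order held for 3 (8.57%), against 27.2%, and these were Insig2, Hmgcs1 and Cyp51. The median log2 fold change (cKO minus WT, on log2(FPKM + 1), which understates changes of low genes) was -0.13 over the 35 genes and -0.0034 over all tested genes, with 25 values below 0 and 10 above. The 95% confidence interval stayed within a 2-fold change in either direction for 34 of the 35 genes on this scale, the exception being Fasn. This held for 9827 of all 10562 tested genes. All 5 Th17 markers, 0 of them called, had both cKO values below both WT values. Their sum was 4148 and 3808 FPKM in WT and 3018 and 2912 in cKO. The 5 T cell markers, 0 of them called, summed to 340 and 357 in WT and 462 and 411 in cKO. Of these, 4 had both cKO values above both WT values. Cd3e had the reverse order, at 21.4 and 22.0 FPKM in WT and 17.8 and 21.2 in cKO. The part of these shifts in the values of the lipid genes was not tested.

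**Figure D2:**
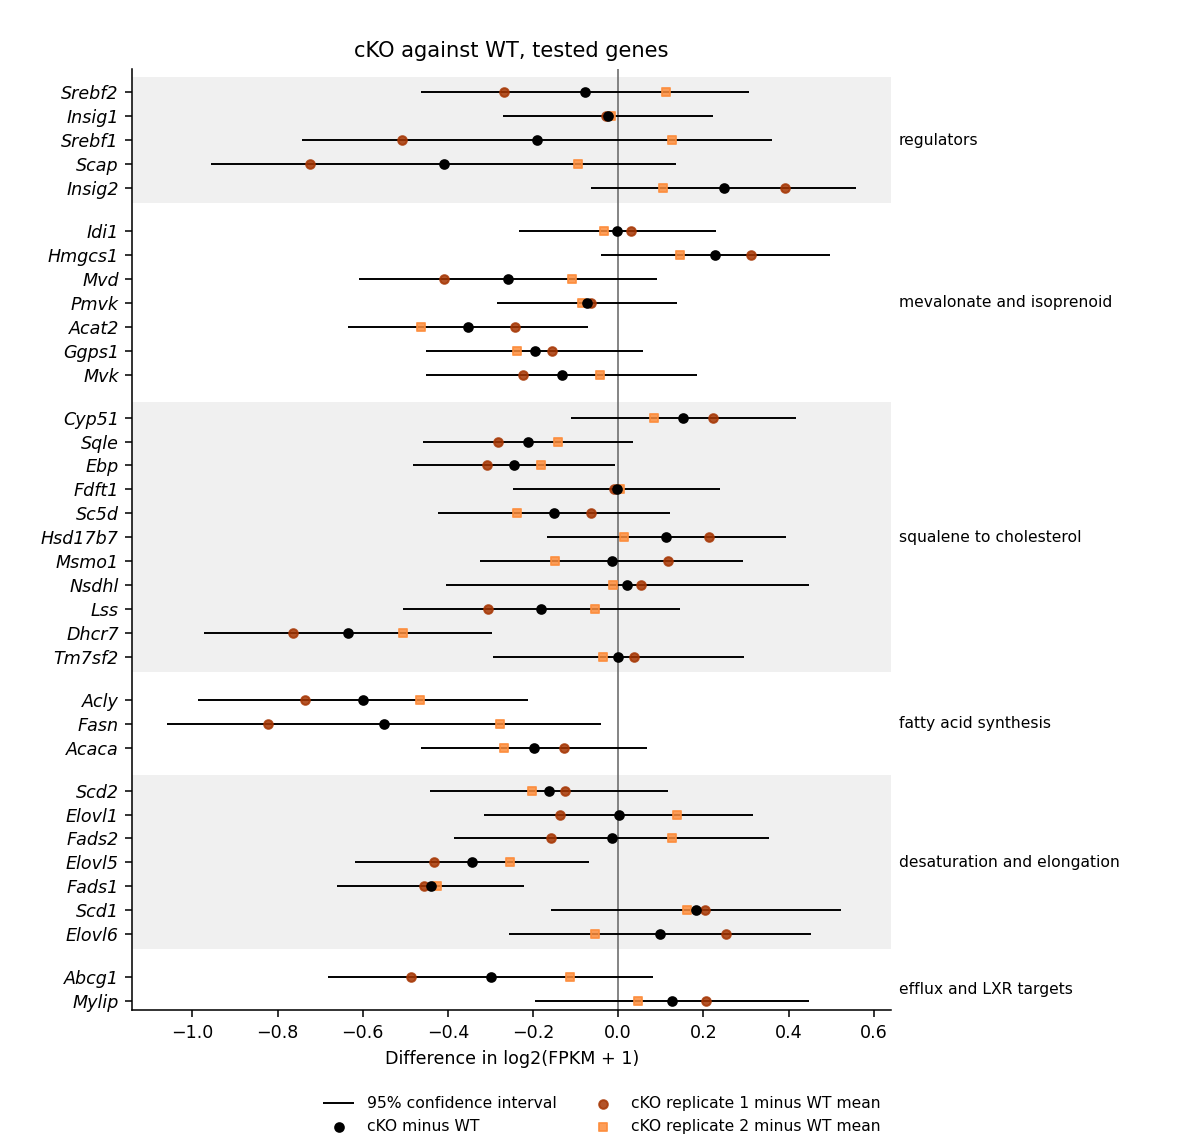
Difference in log2(FPKM + 1) between cKO and WT (x axis) for the 35 tested genes by role (y axis): black points with 95% confidence intervals from limma, and each cKO library against the WT mean in orange. The fatty acid synthesis genes lie left of 0, Fads1 has nearly equal values in both cKO libraries (-0.46 and -0.43), and Srebf1 has its cKO libraries on opposite sides of 0 (-0.51 and 0.13).

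Among the regulators, the cKO libraries stood apart from each other for Srebf1, Srebf2 and Scap and lay close together for Insig1. Srebf2, which encodes the SREBP that mainly drives sterol genes (chromosome 15, 82147266 to 82205376, GRCm38), had 116 and 114 FPKM in WT and 95.3 and 124 in cKO. The cKO values lay on both sides of WT, with a log2 fold change of -0.08 ± 0.15 (SE; limma, adjusted p = 0.791; 95% interval -0.46 to 0.31). Srebf1, which encodes the SREBP forms that mainly drive fatty acid genes (chromosome 11, 60199089 to 60222581), had 40.9 and 39.9 FPKM in WT and 28.1 and 44.2 in cKO. Again cKO replicate 1 was the lowest library and cKO replicate 2 the highest (log2 fold change -0.19 ± 0.22, limma, adjusted p = 0.638; interval -0.74 to 0.36). Its transcript forms are not separated by gene totals. It shares 109 bases with the opposite-strand gene Rai1, which had 16.0 and 15.2 FPKM in WT and 8.58 and 13.0 in cKO. The ratio of Srebf2 to Srebf1 was 2.84 and 2.85 in WT and 3.39 and 2.82 in cKO.

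Scap, the gene of the sterol-sensing escort protein (chromosome 9, 110333288 to 110384950), had 27.5 and 26.9 FPKM in WT and 16.1 and 25.4 in cKO. Replicate 1 of cKO was well under WT and replicate 2 just under it (log2 fold change -0.41 ± 0.21, limma, adjusted p = 0.353). Insig1, the retention factor gene that is itself an SREBP target (chromosome 5, 28071363 to 28078662), was the steadiest of the group at 59.7 and 64.5 FPKM in WT and 60.8 and 61.3 in cKO. Its log2 fold change was -0.02 ± 0.10 (limma, adjusted p = 0.905), with an interval from -0.27 to 0.22. Its relative Insig2, which is less dependent on SREBP, had 6.50 and 6.80 FPKM in WT and 9.03 and 7.23 in cKO (0.25 ± 0.12, limma, adjusted p = 0.331). The ratio of Insig1 to Insig2 was 9.19 and 9.49 in WT and 6.73 and 8.48 in cKO, so both cKO ratios lay under both WT ratios.

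In the mevalonate part, Hmgcs1 and Acat2 had opposite signs. Hmgcs1, which encodes HMG-CoA synthase (chromosome 13, 119690379 to 119708260), had 17.9 and 19.4 FPKM in WT and 23.3 and 20.7 in cKO. Both cKO libraries lay above both WT libraries (log2 fold change 0.23 ± 0.11, limma, adjusted p = 0.31; interval -0.04 to 0.50). Acat2, the thiolase gene at the entry of the pathway (chromosome 17, 12942890 to 12960747), had 8.02 and 7.51 FPKM in WT and 6.40 and 5.35 in cKO. Both cKO libraries lay under both WT libraries (-0.35 ± 0.11, limma, adjusted p = 0.179; interval -0.63 to -0.07). The next kinase steps, Mvk and Pmvk, and the decarboxylase gene Mvd had log2 fold changes of -0.13, -0.07 and -0.26. The whole body of Mvd, 9822 bases, is shared with the opposite-strand model Gm20388, listed at 0 in every library, so its level is less certain. Idi1, the isopentenyl diphosphate isomerase gene, was almost identical between genotypes, at 23.3 and 22.1 FPKM in WT and 23.2 and 22.1 in cKO. Ggps1, which makes the prenyl donor for protein geranylgeranylation, had 6.40 and 7.27 FPKM in WT and 6.03 and 5.64 in cKO (-0.20, limma, adjusted p = 0.344). It shares 257 bases with Arid4b on the opposite strand.

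Fdps, the farnesyl diphosphate synthase gene, could not be read reliably. It was listed at 0.522 and 0.746 FPKM in WT and 0.526 and 0.613 in cKO, from 43 to 60 reads, under the filter. Its gene body shares 7512 bases on the same strand with Gm43738, a protein-coding gene model listed at 0 in every library. The sources used here do not state how reads in shared bases were assigned, and this level is uncertain.

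From squalene to cholesterol, most genes differed little and Dhcr7 stood at the low end. Dhcr7, which encodes the reductase of the last step (chromosome 7, 143823145 to 143848410), had 3.11 and 3.53 FPKM in WT and 1.54 and 2.04 in cKO, from 182 reads in the lowest library to 392 in the highest. The groups did not overlap, with a log2 fold change of -0.63 ± 0.13 (limma, adjusted p = 0.0908; interval -0.97 to -0.30). Sqle, the squalene epoxidase gene and a rate-controlling step (chromosome 15, 59315077 to 59331192), had 24.9 and 25.3 FPKM in WT and 20.4 and 22.6 in cKO. Both cKO libraries were under WT by a small margin (-0.21 ± 0.10, limma, adjusted p = 0.307; interval -0.46 to 0.04). Ebp, a sterol isomerase gene, had 13.9 and 14.4 FPKM in WT and 11.2 and 12.4 in cKO (-0.24, limma, adjusted p = 0.242).

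Cyp51, the lanosterol demethylase gene, had the opposite order, with 30.4 and 32.8 FPKM in WT and 36.99 and 33.5 in cKO (0.15 ± 0.10, limma, adjusted p = 0.447). It shares 166 bases with Akap9 on the opposite strand. The other 7 genes of this stretch, Fdft1, Lss, Tm7sf2, Msmo1, Nsdhl, Hsd17b7 and Sc5d, overlapped between genotypes, with log2 fold changes from -0.18 (Lss) to 0.11 (Hsd17b7). Fdft1 shares 774 bases with Ctsb on the opposite strand and Tm7sf2 shares 532 with Vps51 on the same strand, so their levels are less certain.

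The WT libraries differed from each other across the sterol branch. WT replicate 2 was above WT replicate 1 for 15 of its 18 tested genes, all but Acat2, Pmvk and Idi1. Across all tested genes this order held for 48.3%, and across the 35 tested genes of the set for 25 (71.4%). The median difference of log2(FPKM + 1) between the WT libraries (replicate 1 minus replicate 2) was -0.13 for the sterol branch and 0.0043 over all tested genes. The branch's median log2 fold change between genotypes was -0.10, and 7 of the 18 genes differed more between the WT libraries than between the genotype means. In the fatty acid branch this held for 4 of 10, and the share over all tested genes was not computed.

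In the fatty acid branch, all 3 synthesis genes were under WT in both cKO libraries, an order that 28.7% of all tested genes had. Acly, which encodes the ATP-citrate lyase that makes cytosolic acetyl-CoA (chromosome 11, 100476353 to 100528000), had 858 and 721 FPKM in WT and 472 and 569 in cKO. It was number 54 of all 52636 genes by mean FPKM and rested on 50643 to 88624 reads. The groups did not overlap, and the lower WT library was 1.27 times the higher cKO library. Group means were 789 ± 97.1 and 521 ± 68.6 FPKM (SD, n = 2 each). On the log2 scale the difference was -0.60 ± 0.15 and missed the threshold (limma, adjusted p = 0.125; interval -0.99 to -0.21).

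Fasn, the fatty acid synthase gene (chromosome 11, 120805846 to 120824547), had 98.6 and 87.4 FPKM in WT and 52.1 and 76.4 in cKO. Both cKO libraries lay under WT, replicate 1 by far more than replicate 2 (-0.55 ± 0.20, limma, adjusted p = 0.227; interval -1.06 to -0.04). Acaca, the acetyl-CoA carboxylase gene (chromosome 11, 84129672 to 84401651), had 6.04 and 5.40 FPKM in WT and 5.14 and 4.57 in cKO (-0.20 ± 0.10, limma, adjusted p = 0.353). It shares 19126 bases with Gm11437 on the opposite strand, a model at 0 to 0.125 FPKM, and its level is uncertain to that extent.

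The desaturase and elongase genes were split. Fads1, which encodes the delta-5 desaturase of polyunsaturated fatty acids (chromosome 19, 10182888 to 10196870), had 9.66 and 10.2 FPKM in WT and 6.98 and 7.15 in cKO, with narrow spread in both groups. Its log2 fold change was -0.44 ± 0.09 (limma, adjusted p = 0.0808; interval -0.66 to -0.22), the lowest adjusted p of the 35 genes. Its neighbour Fads2, the delta-6 desaturase gene, had 20.5 and 24.5 FPKM in WT and 20.0 and 24.6 in cKO (-0.02, limma, adjusted p = 0.959). The ratio of Fads2 to Fads1 was 2.13 and 2.39 in WT and 2.87 and 3.44 in cKO, without overlap.

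Elovl5, an elongase of polyunsaturated fatty acids, had 9.49 and 10.5 FPKM in WT and 7.14 and 8.21 in cKO (-0.34 ± 0.11, limma, adjusted p = 0.179). The stearoyl-CoA desaturase gene Scd2 had 63.8 and 72.5 FPKM in WT and 62.3 and 59.0 in cKO (-0.16 ± 0.11, limma, adjusted p = 0.445). Its paralog Scd1 had 5.38 and 7.05 in WT and 7.25 and 7.02 in cKO (0.18 ± 0.13, limma, adjusted p = 0.474). Scd2 was thus the main form in these cells, at 11.9 and 10.3 times Scd1 in WT and 8.59 and 8.41 times in cKO. The elongase genes Elovl1 and Elovl6 overlapped between genotypes, with log2 fold changes of 0.00066 and 0.10. Elovl1 shares 53 bases with the opposite-strand gene Cdc20, which had 187 and 178 FPKM in WT and 105 and 120 in cKO. The part of this overlap in the level of Elovl1 was not tested.

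Set side by side, the totals of the sterol branch overlapped between genotypes and those of the fatty acid branch did not. Summed over its 19 genes, the sterol branch had 212 and 227 FPKM in WT and 214 and 209 in cKO. That sum holds Fdps at only 0.522 to 0.746 FPKM, a level that could not be read reliably. The sterol totals and their overlap are uncertain to that extent. The 10 fatty acid genes summed to 1127 and 994 FPKM in WT and 684 and 817 in cKO, and Acly made up 76.1% and 72.5% of that sum in WT and 69.0% and 69.6% in cKO. Without Acly the fatty acid sums were 269 and 273 in WT and 212 and 248 in cKO, still without overlap. Of these sums, Fasn gave 98.6 and 87.4 in WT and 52.1 and 76.4 in cKO. The 7 desaturation and elongation genes summed to 164 and 181 in WT and 155 and 167 in cKO, with overlap. The separation of the branch totals thus lay in its 3 synthesis genes, mainly Acly and Fasn.

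Counted by gene, the branches were closer. The median log2 fold change was -0.10 in the sterol branch and -0.18 in the fatty acid branch. Against the WT mean, the sterol median was -0.06 in cKO replicate 1 and -0.07 in replicate 2, and the fatty acid median was -0.15 and -0.23. WT stood wholly above cKO for 7 of 18 sterol and 6 of 10 fatty acid genes, against 28.7% of all tested genes, and wholly below it for 2 and 0, against 27.2%. The difference between the branch medians was 0.08, which became -0.017 without WT replicate 1 and 0.16 without cKO replicate 1. The branches share libraries and their genes are not replicates, so no test was made of this difference.

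**Figure D3:**
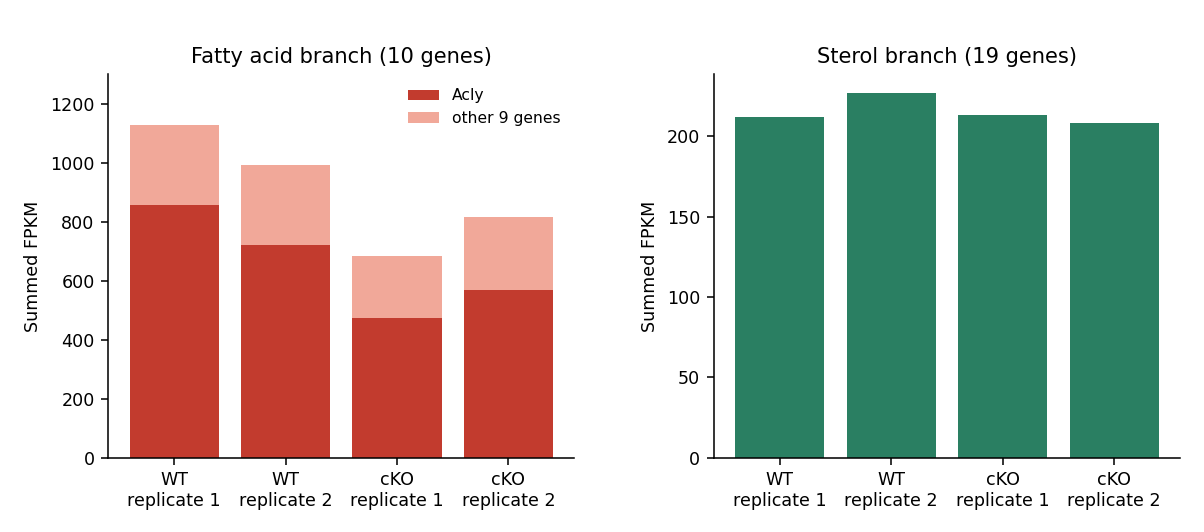
Summed FPKM (y axis, from 0) in each of the 4 libraries (x axis) for the 10 fatty acid genes, split into Acly and the other 9, and for the 19 sterol genes. The fatty acid bars stand at 1127 and 994 in WT and 684 and 817 in cKO, while the sterol bars stay between 209 and 227. The sterol bars include Fdps, whose level is uncertain.

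The efflux genes that LXR receptors activate when sterols accumulate were low. Abca1, a cholesterol exporter gene, was under the filter at 0.641 and 0.616 FPKM in WT and 0.456 and 0.602 in cKO (96 to 130 reads). Abcg1, its partner transporter gene (chromosome 17, 31057698 to 31115777), had 2.97 and 2.99 FPKM in WT and 1.84 and 2.68 in cKO. Only cKO replicate 1 stood well apart (-0.30 ± 0.15, limma, adjusted p = 0.337; interval -0.68 to 0.08). Mylip, which encodes a ligase that degrades lipoprotein receptors, had 1.25 and 1.10 FPKM in WT and 1.51 and 1.24 in cKO (0.13, limma, adjusted p = 0.594). The LXR gene Nr1h2 had 39.4 and 36.7 FPKM in WT and 33.3 and 42.3 in cKO, and Nr1h3 did not exceed 0.104.

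The cKO libraries differed from each other along the GC content of the transcripts, and several of the genes above carry that difference. Over the 35 genes the difference between cKO replicate 1 and replicate 2 had a Spearman rho of -0.775 with GC content, against -0.529 over 10550 tested genes with a GC value and 0.219 for the WT libraries over the 35 genes. These are descriptions across genes that share the same libraries. The 5 genes above 57% GC, a limit chosen after the values were seen, were Srebf1, Srebf2, Scap, Mvd and Fasn. In each of them cKO replicate 1 was the lowest of the 4 libraries, and it lay under replicate 2 by a log2 difference of -0.64 to -0.30, while Pmvk just under the limit showed 0.02. Among the other 30 genes cKO replicate 1 was the lowest library for 11. These counts were not made over all tested genes. The 1055 tested genes with the highest GC content had a median difference between the cKO replicates of -0.32, so the shift is not particular to this set.

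A correction of each library for GC content gave log2 fold changes of -0.06 for Srebf1, 0.04 for Srebf2, -0.27 for Scap, -0.43 for Fasn, -0.56 for Acly, -0.40 for Fads1 and -0.59 for Dhcr7. Of these, Acly, Fads1 and Dhcr7 have 52.1% to 52.8% GC. With this correction Fads1 passed (limma, adjusted p = 0.0499) and was the only gene of the set to do so, against 2.26% of all genes called lower and 2.7% higher.

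**Figure D4:**
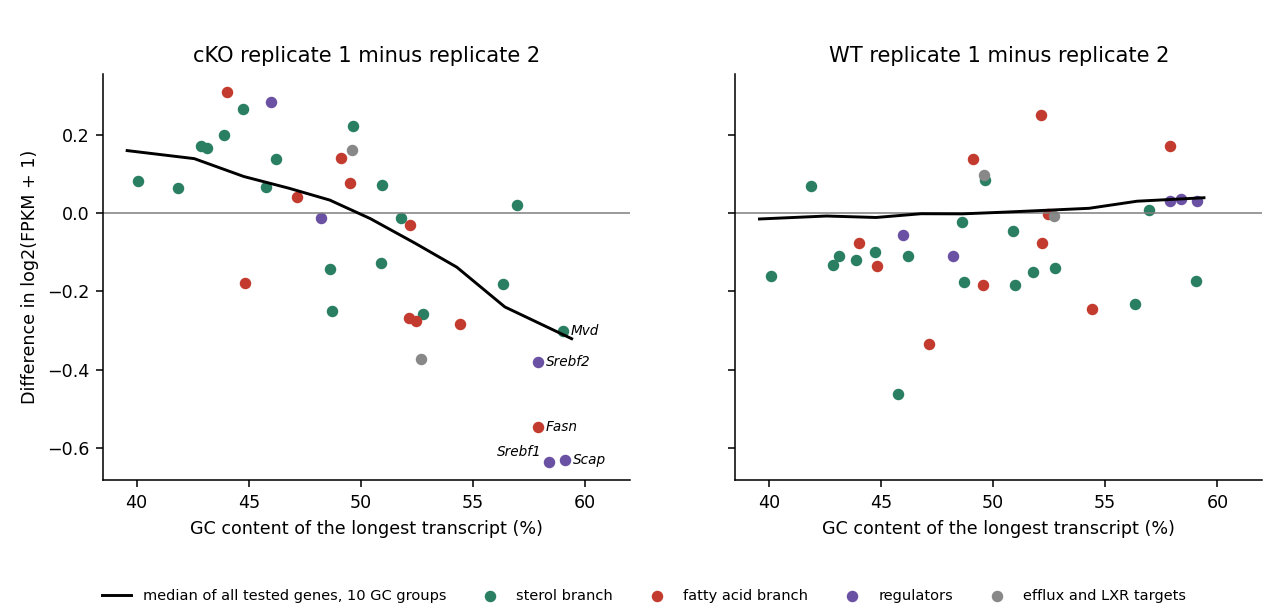
Difference in log2(FPKM + 1) between the replicates (y axis) of cKO (left) and WT (right) against transcript GC content (x axis, percent) for the 35 tested genes, with the median of all tested genes in 10 groups as a line. In cKO the line runs from 0.16 to -0.32 and Srebf1, Scap and Fasn lie below it, while in WT it stays between -0.02 and 0.04.

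Calls on these genes depended on the test and on the libraries used. On reads worked back from FPKM, limma voom called 3 genes lower, Dhcr7 (adjusted p = 0.028), Fads1 (0.0449) and Acly (0.0452), against 3.33% of all genes called lower, and 0 higher, against 2.52%. This fit also scaled the libraries differently, by their gene-assigned reads. These were 98.9% and 96.9% of the totals implied by FPKM in WT and 100.3% and 100.7% in cKO. The voom fit also worked without the 1 FPKM added before the log2, which matters most for low genes. Log2 fold changes went from -0.02 to -0.06 for Insig1 and from -0.60 to -0.64 for Acly. For the lower genes Dhcr7 and Fads1 they went from -0.63 to -0.94 and from -0.44 to -0.53. The parts of the scaling and of the added 1 FPKM in the voom calls and sign changes were not tested. With protein-coding genes only, Dhcr7 (limma, adjusted p = 0.041) and Fads1 (0.0478) passed, against 2.61% called lower and 2.81% higher.

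Without cKO replicate 2, 12 genes were lower (34.3%), against 15.3% of all genes, and Insig2 was higher, against 13.2%. The 12 were Srebf1, Srebf2, Scap, Mvd, Sqle, Ebp, Dhcr7, Acly, Fasn, Elovl5, Fads1 and Abcg1. None passed without cKO replicate 1 (1.4% of all genes higher and 1.08% lower), without WT replicate 1 (0.625% and 0.0947%) or with WT replicate 2 left out (0.464% and 0.0568%). In these fits the lone cKO or WT library is assumed to vary like the other group.

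Promoter sequence was available from RefSeq (GRCm38.p6) for 30 of the 37 genes, and the 250 bases before the start are shown for 3 of them, Hmgcs1 as the sterol gene with the highest fold change and Acly and Fasn as the fatty acid genes with the largest differences. Capitals mark matches on either strand to TCACNCCAC (a form of the sterol regulatory element bound by SREBP), to CACGTG (the E-box) and to CCAAT, the box bound by NF-Y, a factor that acts with SREBP. Hmgcs1 lies on the plus strand at chr13:119690101-119690350, and the others lie on the minus strand, Acly at chr11:100528001-100528250 and Fasn at chr11:120824548-120824797.
Hmgcs1: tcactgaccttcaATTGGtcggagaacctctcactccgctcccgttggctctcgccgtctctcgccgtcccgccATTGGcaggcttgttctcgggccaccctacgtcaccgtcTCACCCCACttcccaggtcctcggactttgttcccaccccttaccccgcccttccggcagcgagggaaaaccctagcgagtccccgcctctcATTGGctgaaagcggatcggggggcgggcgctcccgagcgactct
Acly: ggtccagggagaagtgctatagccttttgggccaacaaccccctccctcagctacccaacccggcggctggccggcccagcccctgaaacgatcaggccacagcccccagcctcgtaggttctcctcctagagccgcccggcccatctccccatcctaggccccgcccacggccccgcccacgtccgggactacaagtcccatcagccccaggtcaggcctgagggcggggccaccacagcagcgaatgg
Fasn: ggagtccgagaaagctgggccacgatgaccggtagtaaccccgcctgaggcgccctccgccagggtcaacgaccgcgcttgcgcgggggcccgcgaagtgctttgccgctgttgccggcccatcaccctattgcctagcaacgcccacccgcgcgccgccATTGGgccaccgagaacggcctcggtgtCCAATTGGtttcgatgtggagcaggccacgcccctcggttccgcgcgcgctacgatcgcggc
Hmgcs1 held 1 match to TCACNCCAC, beginning 137 bases before the start, and 3 to CCAAT at 237, 176 and 45 bases. Fasn held 3 CCAAT matches, at 90, 62 and 59 bases, the last 2 overlapping, and Acly held no match to these motifs.

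Over the matched genes, CCAAT was found for 23 of 30 (76.7%), counting any RefSeq start of a gene, against 33.8% of 32851 promoters of the same length. The GC box GGGCGG, not marked, was found for 24 of 30 (80.0%) against 32.7%, CACGTG for 7 (23.3%) against 6.02%, and TCACNCCAC for 1 (3.33%) against 1.05%. The 30 genes had 39 starts and counted once if any start matched, while the comparison counts each promoter alone. This difference in unit can raise the shares of the genes. The comparison set includes many genes that are not expressed here, and a match is a string of letters, not a measured binding site.

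None of the wider lists of lipid genes held a called gene. Together they had 55 tested genes of 69, of which 4 were higher and 5 lower at an unadjusted p under 0.05 (limma; 9.56% and 10.3% of all tested genes). Their median log2 fold change was -0.01. In the list of sterol transport and esterification (9 of 12 tested), Scarb1, the HDL receptor gene, had 11.9 and 12.1 FPKM in WT and 6.35 and 7.71 in cKO. It did not overlap between genotypes (-0.70 ± 0.11, limma, adjusted p = 0.0624). In the list of SREBP proteases and LXR/RXR receptor genes, Rxra, the retinoid X receptor gene, had 14.5 and 15.2 FPKM in WT and 20.0 and 24.4 in cKO (0.55 ± 0.12, limma, adjusted p = 0.101). Among fatty acid supply and activation genes (12 of 19 tested), the acyl-CoA synthetase gene Acsl5 had 57.4 and 61.2 FPKM in WT and 47.5 and 46.5 in cKO (-0.33 ± 0.09, limma, adjusted p = 0.157). Among 7 genes of isoprenoid use the largest change was that of Fntb, with 6.49 and 6.59 FPKM in WT and 4.80 and 6.53 in cKO (-0.19 ± 0.14, limma, adjusted p = 0.488).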

How the data were processed

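The authors deposited 1 table of FPKM values for 52636 genes in 4 libraries. The submitters' processing notes name featureCounts 1.5.0-p3 and the builds mm10 and GRCm38, and for the aligner, the annotation release and the strand setting nothing is given in the sources used here.

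The test covered 10562 genes, those averaging 1 FPKM or more. It was limma 3.58.1 (R 4.3.3), two-sided, with a variance trend, on log2 of FPKM plus a pseudocount of 1, with Benjamini-Hochberg adjustment over the tested genes. With 2 libraries against 2, an exact permutation test cannot give p under 0.333. Low FPKM values gave whole reads within 0.01 read, which allowed voom as an alternative. Replicates were not copies (chi-square per degree of freedom 5.59 in WT, 36.3 in cKO). GC content came from GENCODE M21, where 99.6% of gene IDs were found, and its correction was a lowess fit per library. The procedure was run on simulated reads, with changes larger than any in this set and noise at a fixed setting. Changes as small as those described here were therefore not covered.

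The members and lists were chosen with earlier results of these data known. Fixed members, the member with the largest change in each list and the most changed gene of each wider list are described in full, and other genes outside the set were named after their values were seen.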

Additional observations from a re-analysis of the deposited data

How the results depend on the processing

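Results were recomputed under 16 alternatives, of which the one with protein-coding genes only was chosen after seeing the data; edgeR's quasi-likelihood test was not run. Over all genes, 86 higher and 27 lower became 0 and 0 with no filter on low values (where p-values were adjusted over more genes), 285 and 238 with the GC correction, 266 and 352 with voom, 259 and 241 with protein-coding genes only, and 49 to 1390 higher and 6 to 1614 lower when 1 library was left out. The lower count was 15 with a pseudocount of 0.1 and 49 with 5. With the replicate number as a block the counts were 154 and 73, and 194 and 98 with the replicate block and the GC correction. The numbers are not shown to pair the libraries (r = -0.09 between the deviations of WT replicate 1 and cKO replicate 1), and no gene of the set passed in either blocked fit.

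Of the set, the count of lower genes went from 0 to 1 with the GC correction, 3 with voom and 2 with protein-coding genes only. When 1 library was left out it ran from 0 to 12, and the higher count from 0 to 1. Over these omissions the sterol median ran from -0.21 (without WT replicate 1) to -0.057 (without WT replicate 2). The difference between branch medians was 0.15 with a filter of 5 FPKM and ran from -0.017 (without WT replicate 1) to 0.16 over the omissions.

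Of 553 recomputed gene values, 497 kept direction and call, 19 passed the threshold, and 37, from 12 genes with main values within 0.19 of 0, changed sign; the cause was not tested. With the GC correction, with or without the replicate block, these were Srebf2 (0.041), Pmvk (0.028), Fdft1 (0.031) and Fads2 (0.050). With quantile normalization they were Idi1 (0.012), Fdft1 (0.011), Tm7sf2 (-0.012), Elovl1 (-0.014) and Fads2 (0.0042), and with median-of-ratios scaling Idi1 (0.0046) and Fdft1 (0.0030). With voom they were Tm7sf2 (-0.033), Nsdhl (-0.0055) and Elovl1 (-0.037), and with a pseudocount of 5 Tm7sf2 (-0.00035). Over the omissions of a library, the ranges that crossed 0 were -0.51 to 0.13 for Srebf1, -0.27 to 0.11 for Srebf2, -0.078 to 0.031 for Insig1, -0.037 to 0.033 for Idi1, -0.078 to 0.072 for Fdft1, -0.091 to 0.093 for Tm7sf2, -0.15 to 0.12 for Msmo1, -0.21 to 0.25 for Nsdhl, -0.14 to 0.14 for Elovl1, -0.055 to 0.25 for Elovl6 and -0.16 to 0.13 for Fads2. Depth limits Fdps, Abca1 and Mylip, with 43 to 130 reads a library.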

Other observations

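In the fatty acid oxidation list, levels were close between genotypes. All 17 of its genes were tested and 0 were called, and none had an unadjusted p under 0.05 (limma), against 9.56% higher and 10.3% lower over all tested genes (0.814% and 0.256% called). Their log2 fold changes ran from -0.10 to 0.19 around a median of 0.02. Cpt1a, the gene of the carnitine transferase that admits fatty acids to mitochondria, had 7.99 and 8.97 FPKM in WT and 8.49 and 8.45 in cKO. The largest value was that of Acadl, an acyl-CoA dehydrogenase gene, with 22.1 and 23.1 FPKM in WT and 28.2 and 23.9 in cKO (0.19 ± 0.11, limma, adjusted p = 0.395). Of the glycerolipid genes 5 of 8 were tested and 0 were called, 1 being higher and 1 lower at an unadjusted p under 0.05, against the same 9.56% and 10.3% of all tested genes. The lipid droplet coat gene Plin2 had 1.99 and 3.14 FPKM in WT and 3.99 and 3.05 in cKO (0.35 ± 0.20, limma, adjusted p = 0.373).

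Further genes of sterol transport lay on either side of WT without overlap. The receptor gene Lrp8 had 5.62 and 6.38 FPKM in WT and 3.51 and 4.03 in cKO (-0.55 ± 0.11, limma, adjusted p = 0.0812), and Tmem97 had 77.1 and 79.7 in WT and 60.6 and 57.2 in cKO (-0.41 ± 0.10, limma, adjusted p = 0.11). Npc2, which encodes a lysosomal cholesterol carrier, had 62.5 and 61.2 FPKM in WT and 88.0 and 83.9 in cKO (0.47 ± 0.09, limma, adjusted p = 0.0851). These 3 genes were chosen after their values were seen.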
